A study of Rattus norvegicus with 4 samples.

Results

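Collagen chains and the enzymes that process them were followed in smooth muscle cells grown from the aorta of Sprague-Dawley rats and exposed to IL-1b (interleukin-1 beta), a cytokine of inflammation. Member genes were those whose symbol is Col followed by a digit, together with the prolyl 4-hydroxylase subunits P4ha1 to P4ha3, the lysyl hydroxylases Plod1 to Plod3, and Serpinh1, Pcolce, Pcolce2, Bmp1, Crtap and P3h1. Probe sets counted only where the platform annotation gave exactly 1 gene symbol. This gave 52 genes with 72 probe sets, of 14217 genes with 20826 such probe sets. Pcolce2 had no such probe set and is not analysed here. Of the 52 genes, 41 encode collagen chains (11 fibrillar, 8 of the basement membrane and 22 others) and 11 encode processing proteins.

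The series holds 4 samples, each hybridised to its own single-colour Affymetrix array. All cells were kept for 5 days with 10% serum and then for 3 days without it. Then 2 samples received vehicle (0.1% bovine serum albumin) and 2 received IL-1b at 2.5 ng/mL, for 24 hours. The labels give no separate culture or animal for each sample, so the p-values reflect sample-to-sample spread that could be technical alone. The cells were cultured and without serum, and the labels do not state their passage. In such bulk samples, fewer cells of a type and less RNA per cell cannot be told apart.

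Every collagen is built from alpha chains that wind into a triple helix. Fibrillar chains assemble into banded fibrils (types I and III make up most of the artery wall's collagen, and types V and XI are minor partners that start fibrils and limit their width). Type IV chains form the sheet-like network of basement membranes, and the remaining types link fibrils, form short networks or span the cell membrane. In the endoplasmic reticulum, prolyl and lysyl hydroxylases modify the new chains, Serpinh1 chaperones the helix, and outside the cell Bmp1 cuts off the C-terminal propeptides with help from Pcolce.

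With IL-1b, transcripts of the minor fibrillar chains Col11a1 and Col5a1 fell, 5.84-fold and 1.80-fold, while those of the main fibrillar chains Col1a1, Col1a2 and Col3a1 did not pass the test. The basement membrane chains Col4a5 and Col4a6 fell 2.71-fold and 2.83-fold, and Col4a1 and Col4a2 did not pass. Among the enzymes, P4ha2 rose 2.42-fold, and P4ha1, P4ha3 and Plod2 fell 1.55-fold, 2.47-fold and 2.04-fold. Folds come from the fit on log2 of intensity plus an offset, which understates the change of dim genes. Folds given as a bound (at least) come instead from intensities without the offset, with background as the floor. Adjusted p is the limma p-value with Benjamini-Hochberg adjustment over all probe sets tested, and 0.05 is the threshold.

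A filter on dim probe sets left 37 member genes with 53 probe sets to test. By the brightest probe set of each gene, 9 of the 37 fell (24.3%) and 2 rose (5.41%). Of 10000 genes tested, 8.13% fell and 7.19% rose. Over probe sets, 17 of 53 passed, 14 lower and 3 higher, against 13.4% of all 18625 probe sets in either direction. The median log2 fold change of the 37 genes was -0.19, and -0.077 over all 52 without the filter. Over all genes tested it was -0.0071. Of the 11 genes past the threshold, 10 were above background on all 4 arrays. Col19a1 was below it on both IL-1b arrays.

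The IL-1b arrays were less alike than the vehicle arrays (Pearson r over probe sets 0.902 against 0.948 on the log2 scale). IL-1b replicate 1 stood apart. Added hybridisation controls read 3.50 times their vehicle mean on it, and background was 60.8 intensity units, against 18.8 to 29.4 on the other arrays. Among the 294 probe sets brightest in the vehicle mean, its intensity was at the median 1.47 times that of IL-1b replicate 2. The smooth muscle markers were above background on all arrays for 9 of 9 genes. Of these 8 fell (all but Des), of which Acta2, Tagln and Myh11 lost their calls without the intensity trend, Tagln and Myh11 also without vehicle replicate 1 or 2 and Myh11 with median centring. For the list, the summed intensity was 33282 to 33788 in vehicle and 8801 to 11792 with IL-1b. Of the 7 endothelial genes measured, 5 were below background on every array, Pecam1 and Vwf among them. Tek was above it on both vehicle arrays (39.2 and 50.6) and on IL-1b replicate 2 (28.2). Kdr was above it only on IL-1b replicate 2 (36.1). The endothelial list summed to 84.9 to 118 in vehicle and 91.7 to 248 with IL-1b. Of 8 leukocyte genes 3 were tested and 1 rose, Lyz2, at least 33.9-fold. The list summed to 678 to 755 in vehicle and to 1754 to 2022 with IL-1b. In vehicle most of it was Cd14 (616 and 578), and with IL-1b Cd14 (796 and 950) and Lyz2 (685 and 969). Cd14 did not pass. Ptprc, which marks all leukocytes, was above background only on IL-1b replicate 1 (94.9). Csf1r, too dim to be tested, read 55.5 and 49.8 with vehicle, above background, and 16.7 and 28.8 with IL-1b. Of 7 fibroblast genes Pdgfra and Dpt rose, by 1.80 and 3.34 (log2). Pdgfra was not called without the filter on dim probe sets or without vehicle replicate 1 or 2. Thy1, Pi16 and Scara5 did not pass, with log2 fold changes of -0.15, 0.49 and -0.52. Fap and Tcf21 were too dim to be tested. The fibroblast list summed to 499 to 597 in vehicle and to 819 to 994 with IL-1b. The part of all these markers in the collagen results was not tested.

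The abundant fibrillar chains come first. Col1a1, the main chain of type I collagen, read 13752 and 13428 with vehicle and 20271 and 12467 with IL-1b. Its partner chain Col1a2 read 10171 and 12700 with vehicle and 15744 and 9179 with IL-1b. For Col3a1, the chain of type III collagen, the values were 15285 and 14652 with vehicle and 16021 and 9689 with IL-1b. In all 3 genes IL-1b replicate 1 was the highest array and IL-1b replicate 2 the lowest, so the vehicle arrays lay between them. The log2 fold changes were 0.23 ± 0.27, 0.081 ± 0.29 and -0.26 ± 0.28 (SE), with adjusted p of 0.64, 0.89 and 0.58. Without IL-1b replicate 1 they were -0.12, -0.31 and -0.63, with adjusted p of 0.12, 0.0019 and 6.5e-11. Without IL-1b replicate 2 they were 0.58, 0.47 and 0.098 (adjusted p = 2.5e-08, 6.2e-05 and 0.20). With an IL-1b array left out, the spread comes from the vehicle arrays alone, so that far more genes pass. With quantile normalization of the arrays, Col3a1 had a log2 fold change of -0.70 (adjusted p = 0.0013), and Col1a1 and Col1a2 did not pass at -0.13 and -0.25.

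**Figure D1:**
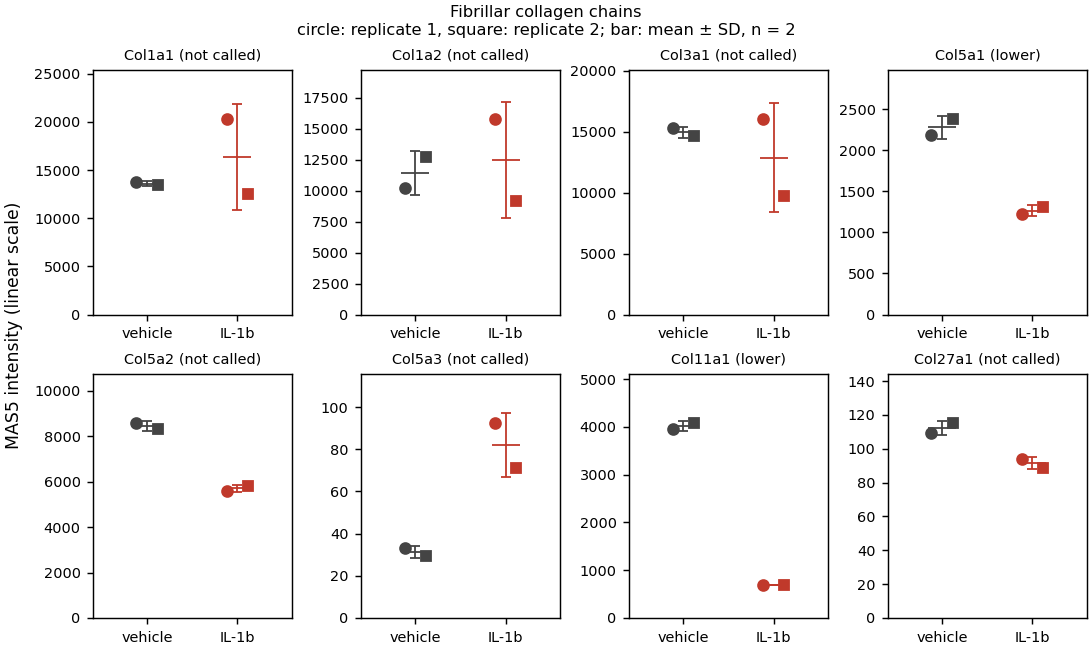
Intensity on each array for 8 fibrillar chains, brightest probe set (vertical axis, MAS5 intensity on a linear scale from 0; circle and square, replicates 1 and 2; bar, mean ± SD, n = 2). For Col1a1, Col1a2 and Col3a1 the IL-1b arrays lie on either side of the vehicle arrays, while for Col11a1 both IL-1b arrays lie near 683 to 685 against 3947 and 4089 with vehicle.

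The minor fibrillar chains were measured next. Col11a1, an alpha chain of type XI collagen that can also pair with type V chains, read 3947 and 4089 with vehicle and 685 and 683 with IL-1b. Both IL-1b arrays lay far below both vehicle arrays, and the log2 fold change was -2.55 ± 0.13 (SE, adjusted p = 9.8e-05). A second Col11a1 probe set read 1425 and 1455 against 60.2 (below background) and 194, with a log2 fold change of -3.66 ± 0.46. The third, too dim to be tested, read 31.0 and 37.3 against 31.6 and 30.4 (log2 fold change -0.12). Col5a1, the type V chain needed to start type I fibrils, read 2181 and 2376 with vehicle and 1218 and 1311 with IL-1b. It fell by 0.85 ± 0.14 (log2, SE, adjusted p = 0.0090), and its other probe set by 0.65 (adjusted p = 0.027). Col5a2, the other main type V chain, read 8599 and 8304 with vehicle and 5602 and 5805 with IL-1b. The groups did not overlap, and the log2 fold change of -0.57 ± 0.17 missed the threshold (adjusted p = 0.071). With 2 arrays against 2, groups without overlap reach a two-sided exact permutation p of 0.333 at best. The share of all genes without overlap was not computed. At the less bright probe set of Col5a2 the values were 4770 and 4931 against 2644 and 2862 and passed (log2 fold change -0.82, adjusted p = 0.013). With quantile normalization or median centring the brightest probe set passed too, at -0.73 and -0.77 (adjusted p = 0.014 and 0.034).

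Among dimmer fibrillar chains, Col5a3 read 33.2 and 29.4 with vehicle and 92.6 and 71.1 with IL-1b, with a log2 fold change of 1.24 ± 0.52 that missed the threshold (adjusted p = 0.18). Col27a1 read 109 and 115 against 94.0 and 88.8 (adjusted p = 0.62), and Col11a2 read 45.2 and 44.6 against 43.6 and 31.8 (adjusted p = 0.84). Col2a1, the cartilage chain, and Col24a1 were too dim to be tested, with 21.4 to 59.3 and 4.60 to 13.6 under vehicle and 19.1 to 38.8 and 19.0 to 66.1 under IL-1b. Of 9 fibrillar chains tested, 2 fell (22.2%) and 0 rose in limma, against 8.13% and 7.19% of all genes. At an unadjusted p under 0.05, 3 were lower and 0 higher, and the median log2 fold change was -0.26.

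Ratios within an array do not depend on a factor common to all its intensities, apart from the small offset. So 11 pairs of genes were followed in this way, each ratio set against its vehicle mean. A distortion that changes with intensity stays in such ratios. IL-1b replicate 1 read 1.47 times replicate 2 at the median of the 294 brightest probe sets, which include Col1a1. On IL-1b replicates 1 and 2 the log2 ratio of Col11a1 to Col1a1 was -3.12 and -2.42, and that of Col5a1 to Col1a1 was -1.48 and -0.67. For Col5a2 over Col1a1 it was -1.17 and -0.42. The ratio of Col3a1 to Col1a1 was also lower on both arrays, at -0.48 and -0.50, against 0.01 and -0.01 with vehicle. That of Col1a2 to Col1a1, at -0.11 and -0.18, lay within the vehicle arrays' range of -0.18 to 0.18 or just outside it. With 2 arrays against 2, the two-sided exact permutation test cannot give a p below 0.333, which 9 of the 11 pairs reached.

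**Figure D2:**
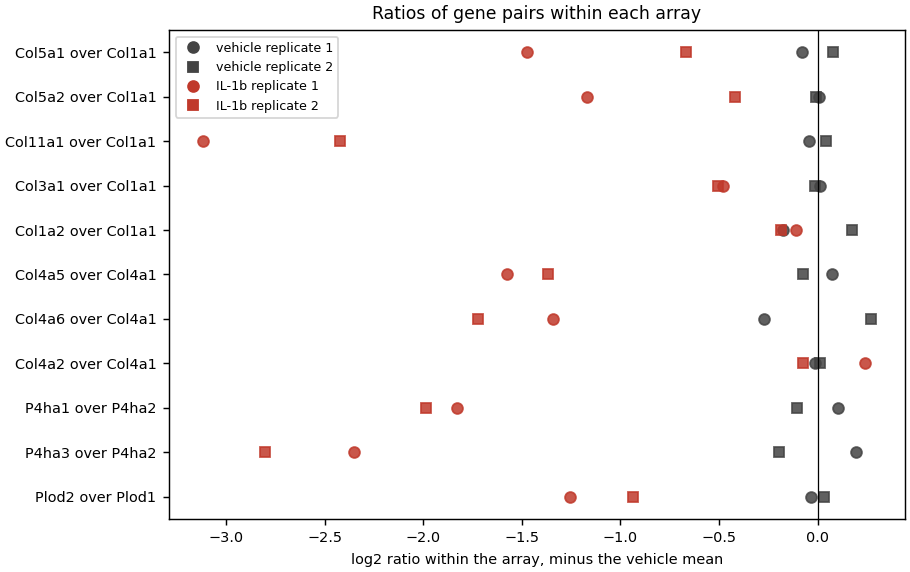
Log2 ratio of gene pairs within each array, minus the mean of the vehicle arrays (horizontal axis; grey, vehicle; red, IL-1b; circle and square, replicates 1 and 2). The ratios of Col11a1, Col5a1 and Col5a2 to Col1a1, of Col4a5 and Col4a6 to Col4a1, of P4ha1 and P4ha3 to P4ha2 and of Plod2 to Plod1 lie below the vehicle arrays on both IL-1b arrays.

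Type IV chains of the basement membrane are encoded in head-to-head gene pairs. In the RefSeq table of promoters (build GRCr8), which held a sequence for 42 of the 52 members, the start sites of Col4a1 and Col4a2 lie 76 bases apart on chromosome 16. Those of Col4a5 and Col4a6 lie 1414 bases apart on chromosome X. The bases upstream of the starts are shown because each pair transcribes outward from this stretch. Only bases outside every annotated gene are printed, 5′ to 3′ on the strand of the gene named first, in lower case, with capitals for the motifs CCAAT and GGGCGG on either strand.
Col4a1 and Col4a2, all bases between their starts, chr16:84885521-84885596, plus strand: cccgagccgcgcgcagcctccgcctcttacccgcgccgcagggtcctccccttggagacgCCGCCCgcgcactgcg
Col4a5, 109 to 250 bases before its start, chrX:109907109-109907250, plus strand: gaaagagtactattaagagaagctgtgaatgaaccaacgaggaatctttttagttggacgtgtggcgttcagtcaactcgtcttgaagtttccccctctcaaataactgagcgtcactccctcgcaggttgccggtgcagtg
Col4a6, 44 to 250 bases before its start, chrX:109905988-109906194, minus strand: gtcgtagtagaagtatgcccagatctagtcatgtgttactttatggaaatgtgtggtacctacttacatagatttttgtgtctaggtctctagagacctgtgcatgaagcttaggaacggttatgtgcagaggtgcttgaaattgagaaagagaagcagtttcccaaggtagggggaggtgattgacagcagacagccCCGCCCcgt
The stretch between Col4a1 and Col4a2 holds GGGCGG once, on the Col4a2 strand, and no CCAAT. The Col4a6 stretch holds GGGCGG once, on the opposite strand, and the Col4a5 stretch shown holds neither motif. Over the full 250 bases before the start, 27 of 42 members held GGGCGG (64.3%) and 10 held CCAAT (23.8%). The shares were 60.8% and 36.5% over 8417 tested genes with a sequence, and 32.4% and 34.3% over all 27457 symbols in the table.

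Col4a1, which with Col4a2 makes the common type IV network, read 3460 and 3724 with vehicle and 3594 and 3762 with IL-1b. Col4a2 read 2026 and 2224 with vehicle and 2510 and 2114 with IL-1b. The groups overlapped in both genes, and the log2 fold changes were 0.035 ± 0.15 and 0.12 ± 0.16 (SE, adjusted p = 0.90 and 0.67). The other Col4a1 probe set gave 0.14 (adjusted p = 0.58). Col4a2 was at -0.0055 without IL-1b replicate 1 and at 0.24 without IL-1b replicate 2, so the higher value was on IL-1b replicate 1 alone.

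Col4a5 and Col4a6 make the type IV network found around smooth muscle cells. Col4a5 read 3208 and 3113 with vehicle and 1056 and 1282 with IL-1b, with no overlap, and fell by 1.44 ± 0.15 (log2, SE, adjusted p = 0.0014). Col4a6 read 177 and 281 with vehicle and 84.7 and 67.1 with IL-1b, also with no overlap, and fell by 1.499 ± 0.34 (adjusted p = 0.029). Its vehicle arrays differed more than those of Col4a5, and without vehicle replicate 2 its call was lost (log2 fold change -1.17, adjusted p = 0.42). The other Col4a6 probe set read 187 and 233 against 10.1 (below background) and 41.2, with a log2 fold change of -2.99 ± 0.60 (adjusted p = 0.019). Within the arrays, the log2 ratio of Col4a5 to Col4a1 was -1.58 and -1.37 on IL-1b replicates 1 and 2, relative to vehicle, and that of Col4a6 to Col4a1 was -1.34 and -1.72. For Col4a2 to Col4a1 it was 0.24 and -0.073.

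Col18a1, whose C-terminal fragment is endostatin, read 2303 and 2056 with vehicle and 4298 and 2793 with IL-1b, higher on both IL-1b arrays, without passing (log2 fold change 0.67 ± 0.22, adjusted p = 0.10). Its log2 fold change was 0.36 without IL-1b replicate 1 and 0.98 without replicate 2. Col18a1 passed with the replicate number as a block (adjusted p = 0.030). A second Col18a1 probe set gave 0.12 (adjusted p = 0.65). Its relative Col15a1 read 396 and 298 against 251 and 357 (adjusted p = 0.66). Col4a4 was at 3.08 to 7.27 on all arrays, and Col7a1, the anchoring fibril chain, at 4.27 to 24.7, both too dim to be tested. Of 6 basement membrane chains tested, 2 fell (33.3%) and 0 rose in limma, against 8.13% and 7.19% of all genes. At an unadjusted p under 0.05, 2 were lower and 1 higher, and the median log2 fold change was -0.079.

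**Figure D3:**
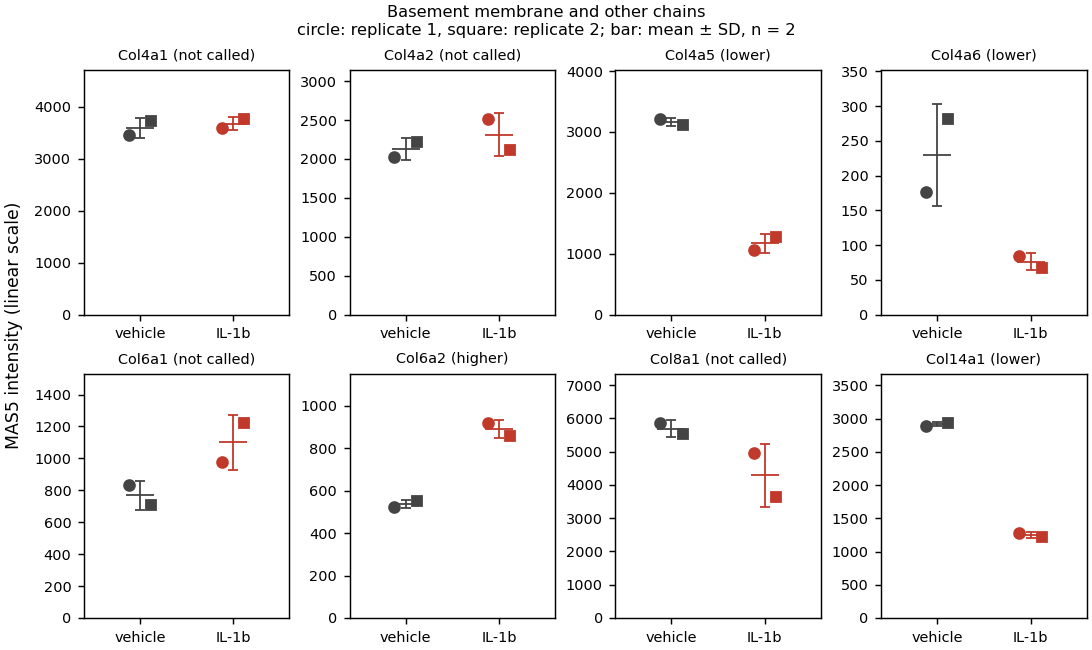
Intensity on each array for 8 basement membrane and other chains, brightest probe set (vertical axis, MAS5 intensity on a linear scale from 0; circle and square, replicates 1 and 2; bar, mean ± SD, n = 2). Col4a5, Col4a6 and Col14a1 are lower on both IL-1b arrays, Col6a2 is higher on both, and for Col4a1 and Col4a2 the groups overlap.

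Type VI chains form beaded microfilaments around cells. Col6a2 read 523 and 553 with vehicle and 921 and 860 with IL-1b, and rose by 0.72 ± 0.15 (log2, SE, adjusted p = 0.020). The groups did not overlap. A dim second probe set of Col6a2, at 52.9 to 72.4 on the 4 arrays, did not pass (log2 fold change -0.020), and with the mean of both the call was lost (adjusted p = 0.28). Col6a1 read 831 and 705 with vehicle and 979 and 1224 with IL-1b, without passing (log2 fold change 0.51 ± 0.17, adjusted p = 0.11). Its log2 fold change was 0.67 without IL-1b replicate 1 and 0.35 without replicate 2. The probe sets of Col6a3, the third chain of the type VI trimer, were too dim to be tested, at 11.8 to 24.2 for the brightest. Col6a5 was too dim as well, and Col6a6 read 61.8 and 59.0 against 63.6 and 16.8 (adjusted p = 0.54).

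Type VIII chains form hexagonal networks under endothelium and around smooth muscle. Col8a1 read 5871 and 5517 with vehicle and 4954 and 3623 with IL-1b, without passing (log2 fold change -0.43 ± 0.20, adjusted p = 0.22). Both IL-1b arrays were below both vehicle arrays, and Col8a1 passed with quantile normalization (-0.55, adjusted p = 0.024). Its log2 fold change was -0.65 without IL-1b replicate 1 and -0.20 without replicate 2. Col8a2 read 86.0 and 73.0 against 101 and 115 (adjusted p = 0.49). Col10a1, known from growth cartilage, read 102 and 128 with vehicle and 35.4 and 21.9 with IL-1b, the first of these below background. Its log2 fold change of -1.84 ± 0.50 missed the threshold (adjusted p = 0.058). It passed with quantile normalization, median centring or the replicate block (adjusted p = 0.036, 0.019 and 0.034). Col10a1 has 1 probe set, so the fit to the mean of a gene's probe sets averaged nothing for it. Its log2 fold change there was the same, and it passed with the adjustment made over genes (adjusted p = 0.045). Its log2 fold change was -2.13 without IL-1b replicate 1 and -1.55 without replicate 2.

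Of 6 tested chains that sit on the surface of fibrils (FACIT chains), Col14a1 and Col19a1 fell (33.3%) and 0 rose in limma. Over all genes 8.13% fell and 7.19% rose. At an unadjusted p under 0.05 the FACIT counts were 2 lower and 0 higher. Col14a1, which binds fibrils of type I, read 2896 and 2940 with vehicle and 1278 and 1221 with IL-1b. The groups were far apart relative to their spread, and Col14a1 fell by 1.22 ± 0.14 (log2, SE, adjusted p = 0.0016). Its second probe set fell by 1.03 ± 0.18 (adjusted p = 0.011), from 1084 and 1059 to 606 and 450.1. Col19a1 read 221 and 180.5 with vehicle and 59.4 and 8.56 with IL-1b, below background on both IL-1b arrays. It fell at least 5.90-fold (fitted log2 fold change -2.76 ± 0.72, adjusted p = 0.049). That fold takes background as the lowest level an IL-1b array can show. The fitted value was -3.87 without IL-1b replicate 1 and -1.66 without replicate 2, and the call was lost without vehicle replicate 1 or 2 (adjusted p = 0.20 and 0.12) and with no offset (0.065).

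Col12a1, another chain on the surface of fibrils, read 596 and 521 with vehicle and 438 and 435 with IL-1b (log2 fold change -0.35 ± 0.16, adjusted p = 0.22), and its 2 other probe sets gave -0.17 and 0.88, neither passing. Col16a1, at 445 and 394 against 399 and 372, did not pass (adjusted p = 0.70). Neither did the dim Col22a1 and Col9a2 (adjusted p = 0.50 and 0.82). Col22a1 read 36.2 and 19.2 with vehicle and 100.4 and 29.2 with IL-1b. It was at 0.11 without IL-1b replicate 1 and at 1.72 without IL-1b replicate 2. Col9a1, Col9a3, Col20a1 and Col26a1 and the transmembrane chains Col13a1, Col17a1, Col23a1 and Col25a1 were too dim to be tested. In all, 14 of 41 chains and 1 of 11 processing genes were not tested, and 0 of these 15 were above background on all 4 arrays. Of the 12 chains tested outside the fibrillar and basement membrane groups, 2 fell (16.7%) and 1 rose (8.33%), against 8.13% and 7.19% of all genes. Their median log2 fold change was -0.23 (-0.077 over all 22 without the filter).

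Medians were also taken for each group of chains. Per array, the median difference from the vehicle mean was -0.038 and -0.43 (log2) for fibrillar chains on IL-1b replicates 1 and 2. It was -0.22 and 0.025 for basement membrane chains, and -6.7e-05 and -0.26 for the other chains. The spread between replicates of these array medians was 0.20, 0.092 and 0.17 (SD pooled over the groups), and no test was made between the groups of chains. The genes that passed were spread over all 3 groups, each of which also held chains that did not pass.

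**Figure D4:**
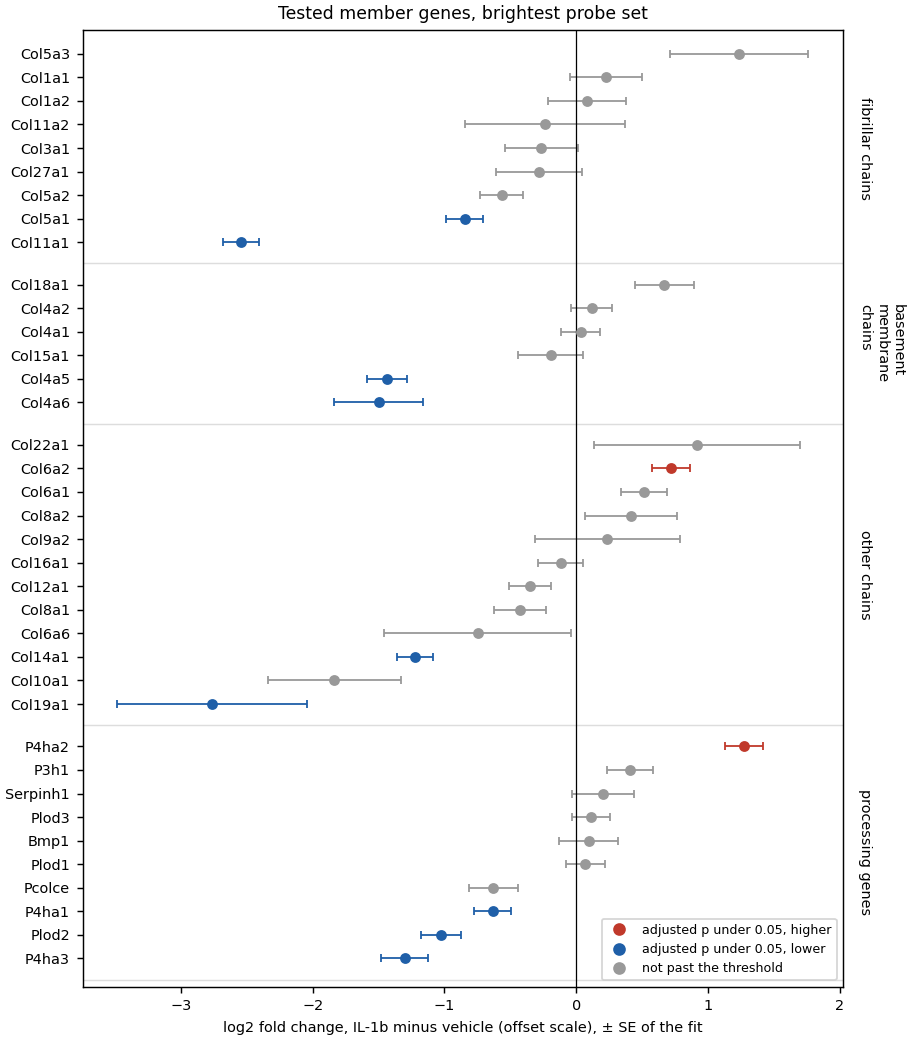
Log2 fold change of the 37 tested member genes at their brightest probe set (horizontal axis, IL-1b minus vehicle on the offset scale, with the SE of the fit; blue, lower and red, higher at an adjusted p under 0.05; grey, not past the threshold), ordered within each group. Fibrillar, basement membrane and other chains each hold genes that fell, from -0.85 for Col5a1 to -2.76 for Col19a1, beside genes near 0.

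Prolyl 4-hydroxylase adds the hydroxyl groups that keep the collagen helix stable at body temperature, and its catalytic alpha subunit comes in 3 forms. P4ha1, the form that prevails in most cells, read 2867 and 2773 with vehicle and 1857 and 1774 with IL-1b, and fell by 0.63 ± 0.14 (log2, SE, adjusted p = 0.026). P4ha2 read 548 and 611 with vehicle and 1363 and 1453 with IL-1b, and rose by 1.27 ± 0.15 (adjusted p = 0.0018). P4ha3 read 1406 and 1190.4 with vehicle and 590.5 and 460.1 with IL-1b, and fell by 1.30 ± 0.18 (adjusted p = 0.0042). In none of the 3 did the groups overlap, for which the exact permutation p is again 0.333 at best. As above, the share of all genes without overlap was not computed. The second P4ha2 probe set, at 58.0 and 60.96 against 135 and 281, passed as well (log2 fold change 1.63, adjusted p = 0.046). The log2 ratio of P4ha1 to P4ha2 within an array was -1.83 and -1.99 on IL-1b replicates 1 and 2, relative to vehicle, and that of P4ha3 to P4ha2 was -2.35 and -2.80.

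The bases before the starts of P4ha2 and P4ha3, which passed in opposite directions, are shown with the same capitals, and Col11a1 as the fibrillar chain with the largest fall.
P4ha2, 1 to 250 bases before its start, chr10:38743644-38743893, plus strand: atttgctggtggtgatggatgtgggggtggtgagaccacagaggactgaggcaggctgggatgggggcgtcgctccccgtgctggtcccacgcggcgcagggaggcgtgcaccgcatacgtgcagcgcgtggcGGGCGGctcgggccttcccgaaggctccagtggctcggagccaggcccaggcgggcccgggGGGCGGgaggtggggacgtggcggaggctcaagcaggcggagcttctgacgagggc
P4ha3, 13 to 250 bases before its start, chr1:164040614-164040851, plus strand: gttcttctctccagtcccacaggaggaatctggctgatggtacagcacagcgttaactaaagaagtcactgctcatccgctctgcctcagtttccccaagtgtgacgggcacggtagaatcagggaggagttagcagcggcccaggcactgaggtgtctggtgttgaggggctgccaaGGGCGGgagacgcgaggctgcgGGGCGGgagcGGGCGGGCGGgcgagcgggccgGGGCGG
Col11a1, 1 to 250 bases before its start, chr2:204508886-204509135, plus strand: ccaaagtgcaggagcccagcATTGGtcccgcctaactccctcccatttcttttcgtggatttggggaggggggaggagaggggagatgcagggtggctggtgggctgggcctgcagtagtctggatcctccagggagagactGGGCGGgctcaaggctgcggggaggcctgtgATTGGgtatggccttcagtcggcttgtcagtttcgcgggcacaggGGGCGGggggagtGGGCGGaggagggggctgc
GGGCGG stands 2 times in the P4ha2 stretch and 5 times in that of P4ha3, with overlapping matches counted. In the Col11a1 stretch it stands 3 times, and CCAAT 2 times on the other strand. Of 9 members past the threshold with a sequence, 7 held GGGCGG and 1 held CCAAT. Over tested genes with a sequence the shares were 60.8% and 36.5%. A match here is only a description of the letters.

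Lysyl hydroxylases prepare lysines for cross-links and for attached sugars. Plod2, which acts on the short non-helical ends where stable cross-links form, read 6094 and 6143 with vehicle and 2891 and 3119 with IL-1b. Both IL-1b arrays lay far below both vehicle arrays, and Plod2 fell by 1.03 ± 0.15 (log2, SE, adjusted p = 0.0056). Plod1, which acts on lysines of the helix, read 1079.9 and 1038 against 1197 and 1032 (log2 fold change 0.070 ± 0.15, adjusted p = 0.80). Plod3, which also attaches sugars, read 1262 and 1426 against 1516 and 1389.7 (log2 fold change 0.11 ± 0.15, adjusted p = 0.66). The groups overlapped in both. The log2 ratio of Plod2 to Plod1 was -1.26 and -0.93 on the IL-1b arrays, relative to vehicle.

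Serpinh1 (HSP47), the collagen chaperone, read 6396 and 5766 with vehicle and 8651 and 5639.7 with IL-1b (log2 fold change 0.20 ± 0.24, adjusted p = 0.63). As for Col1a1, IL-1b replicate 1 was the highest array and IL-1b replicate 2 the lowest. Serpinh1 had a log2 fold change of -0.11 without replicate 1 and 0.51 without replicate 2. P3h1, which hydroxylates selected prolines in a complex with Crtap, read 458 and 425 against 650 and 531, higher on both IL-1b arrays without passing (log2 fold change 0.41 ± 0.17, adjusted p = 0.18). It was at 0.26 without IL-1b replicate 1 and at 0.55 without IL-1b replicate 2. Crtap was too dim to be tested, at 10.6 and 5.63 with vehicle and 36.5 and 38.8 with IL-1b. Only the last of these values was above the background of its array. Bmp1, which removes C-terminal propeptides, read 280 and 411 against 375 and 351 (log2 fold change 0.095 ± 0.23, adjusted p = 0.82). Its helper Pcolce read 4676 and 5335 with vehicle and 3704 and 2814 with IL-1b, lower on both IL-1b arrays, without passing (log2 fold change -0.63 ± 0.19, adjusted p = 0.077). Pcolce passed with quantile normalization or median centring, at -0.73 and -0.83 (adjusted p = 0.017 and 0.049). Its log2 fold change was -0.83 without IL-1b replicate 1 and -0.43 without replicate 2. Of the 10 processing genes tested, 3 fell (30%) and 1 rose (10%), against 8.13% and 7.19% of all genes. Their median log2 fold change was 0.082 (-0.12 with median centring).

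**Figure D5:**
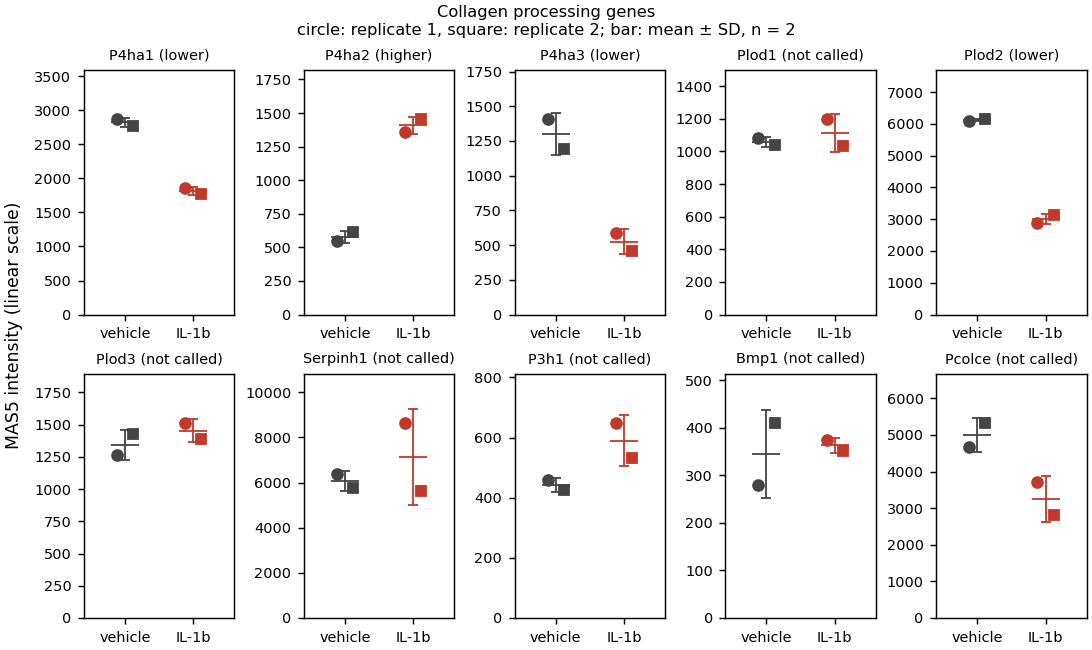
Intensity on each array for the 10 processing genes tested (vertical axis, MAS5 intensity on a linear scale from 0; circle and square, replicates 1 and 2; bar, mean ± SD, n = 2). P4ha1, P4ha3 and Plod2 are lower and P4ha2 is higher on both IL-1b arrays, and Plod1, Plod3 and Bmp1 overlap between the groups.

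The calls differed in how far they depended on the fit. Col11a1, Col14a1 and Col4a5 passed under all 14 alternative fits at the same threshold. P4ha2 lost its call only with median centring (log2 fold change 1.07, adjusted p = 0.10), which lowered the median of all genes from -0.0071 to -0.21. Without the intensity trend in the variance these 4 genes passed and the other 7 did not (adjusted p of 0.062 to 0.14). With median centring Col5a1, Col6a2 and P4ha1 did not pass either (adjusted p = 0.068, 0.51 and 0.12). Without vehicle replicate 1 or vehicle replicate 2, Col5a1, Col6a2, P4ha1 and Plod2 lost their calls, with log2 fold changes for Plod2 of -1.03 and -1.02 (adjusted p = 0.097 and 0.11). With either IL-1b array left out, the spread comes from the vehicle arrays alone. More members then pass, as do far more of all genes.

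Genes that act on collagen before and after secretion were counted in lists of their own. Over all 10000 genes tested, 7.19% rose and 8.13% fell. A count of 1 of 11 (9.09%) or 1 of 8 (12.5%) is near these shares. Of 11 tested genes for folding, hydroxylation and glycosylation in the endoplasmic reticulum, 1 rose and 0 fell (1 and 2 at an unadjusted p under 0.05). That gene was Pdia3, a disulfide isomerase, by 0.66 (log2, adjusted p = 0.045), and it lost its call under 6 of 14 alternatives. P4hb, the beta subunit shared by all prolyl 4-hydroxylases, read 7421 and 7576 against 12074 and 8956, without passing (log2 fold change 0.47 ± 0.21, adjusted p = 0.20). Of 8 secretion genes 1 rose and 0 fell (1 and 0 unadjusted). Creb3l1, a membrane-bound transcription factor known to drive type I collagen in bone, rose from 184 and 149.5 to 931 and 545 (log2 fold change 2.07 ± 0.28, adjusted p = 0.0038), with no call when the intensity trend was left out.

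Of 11 tested genes for cross-linking and fibril assembly, 2 fell (18.2%, against 8.13% of all genes) and 0 rose (3 and 3 unadjusted). Fmod (fibromodulin), which binds fibrils, fell by 2.18 ± 0.15 (log2, SE, adjusted p = 2.0e-04), and Loxl3, a lysyl oxidase relative, by 1.24 ± 0.14 (adjusted p = 0.0017). Lox itself, which starts cross-links, read 5626 and 5479 against 9879 and 7344, without passing (adjusted p = 0.096). Of 5 collagen receptors tested, 1 fell and 1 rose (20% each, against 8.13% and 7.19% of all genes). Itga11, the alpha subunit of an integrin that binds fibrillar collagen, fell from 1137 and 1112 to 53.0 and 37.6 (log2 fold change -4.49 ± 0.23, adjusted p = 9.3e-05), the first of these IL-1b values below background. Ddr2, a receptor kinase for fibrillar collagen, rose from 942 and 981 to 2324 and 2236 (log2 fold change 1.24 ± 0.14, adjusted p = 0.0015) and lost its call with median centring.

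In the list of collagen degradation, 5 of 12 tested genes rose (41.7%) and 1 fell (8.33%), against 7.19% and 8.13% of all genes. Mmp3 and Mmp13, the latter a collagenase, rose from below background, Mmp3 at least 44.9-fold and Mmp13 at least 28.5-fold. Mmp2, a gelatinase, rose by 1.596 ± 0.19 and the inhibitor Timp1 by 2.50 ± 0.38 (log2, SE). The others, named after their values were seen, were Ctsb, a lysosomal protease that rose by 1.09, and the inhibitor Timp3, which fell by 1.40. Timp1, Timp3 and Ctsb lost their calls without the intensity trend, Ctsb also without vehicle replicate 1 or 2.

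Of 18 tested regulators of collagen transcription, 3 rose (16.7%) and 5 fell (27.8%), against 7.19% and 8.13% of all genes. Tgfb3 and Tgfb2, ligands of a pathway that raises collagen synthesis, fell by 2.90 ± 0.16 and 1.70 ± 0.15 (log2, SE, adjusted p = 1.0e-04 and 5.4e-04). Scx (scleraxis), a tendon factor that activates type I collagen genes, fell by 2.34 ± 0.29, and Cebpd rose by 1.73 ± 0.13. Named after their values were seen were Tgfb1 and Cebpb, which rose by 1.52 and 1.59, and Mrtfa and Srf, which fell by 1.08 and 0.86. Mrtfa and Srf did not pass with median centring or without the intensity trend, and Srf not without vehicle replicate 1 or 2, or with the mean of its probe sets, either. Smad2, Smad3, Smad4, Smad7 and Tgfbr1, which carry the signal of these ligands, did not pass, with log2 fold changes of -0.18 to 0.45.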

How the data were processed

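The deposited values are linear intensities per probe set of single-colour arrays. The submitters' processing notes name MAS5, with no version or settings in the sources read. MAS5 subtracts background and scales each array, and a mean trimmed by 2% at each end was 250.1 on every array, so no further normalization was applied. Before taking log2, an offset of 5.49 was added (their 10th percentile). With 57 control probe sets removed, 18625 of 31099 probe sets at or above the 40th percentile of mean log2 value (5.37) were kept. The fit used limma 3.58.1 under R 4.3.3 (lmFit, eBayes with an intensity trend, 2 residual and 4.91 prior degrees of freedom, Benjamini-Hochberg adjustment).

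Symbols came from the platform annotation, and the brightest probe set stood for its gene. Background was the 95th percentile, per array, of 26 of the 27 control probe sets for Bacillus transcripts, those under the array median on every array. Where both arrays of a group lay below it, the fold is a bound. Promoter letters come from RefSeq (GRCr8). The number of arrays limits the precision, and the procedure was tested on simulated data.

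The members and gene lists were chosen with earlier results of these data known. Every member was accounted for, with array values for those past the threshold and for the main chains and enzymes. Of each related list, up to 4 genes with the largest change past the threshold were named. Alternatives were other offsets, scalings, filters, variance models and thresholds, the replicate block, each array left out and the mean of a gene's probe sets.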

Additional observations from a re-analysis of the deposited data

How the results depend on the processing

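The count of 2503 probe sets past the threshold became 1637 with median centring, 963 without the intensity trend, 1222 at an adjusted p under 0.01 and 1357 to 8666 with 1 array left out. Leaving out an array leaves 1 residual degree of freedom and assumes that the lone sample varies like the other group. Median centring called 338 genes higher and 617 lower, against 719 and 813 without it. Chain genes higher numbered 1, and 0 in limma with median centring, without the intensity trend, with the mean of a gene's probe sets, at an adjusted p under 0.01 and at 2-fold or more (0 to 3 at an unadjusted p under 0.05), 2 with the replicate block and 0 to 7 with 1 array left out. Chain genes lower numbered 6, and 10 with quantile normalization, 3 without the intensity trend and 3 to 11 with 1 array left out. Processing genes higher numbered 1, and 0 with median centring (1 unadjusted) and 1 to 3 with 1 array left out. Processing genes lower numbered 3, and 0 without the intensity trend (3 unadjusted) and 1 to 4 with 1 array left out.

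The median log2 fold change of fibrillar chains was -0.48 with quantile normalization, -0.47 with median centring and -0.43 to -0.038 with 1 array left out. With median centring it was -0.28 for basement membrane chains, -0.44 for other chains and -0.12 for processing genes. With 1 array left out the ranges were -0.22 to 0.025, -0.32 to -6.7e-05 and -0.076 to 0.16, and with the mean of a gene's probe sets the other chains gave -0.00030. Col1a2 turned from 0.081 to -0.31 without IL-1b replicate 1, and was 0.47 without IL-1b replicate 2. Among genes not past the threshold, 24 of 324 values under an alternative had the other sign without passing, and 13 genes passed under at least 1 alternative.

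The labels do not say whether samples with the same replicate number belong together. Replicate differences correlated between the groups at 0.091 over tested probe sets, which does not settle this. The replicate block gave 3276 probe sets past the threshold, against 2503 without it. Intensity over background limits the 15 members not tested.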
